A study of Mus musculus with 6 samples.

Results

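The genes described here encode the proteins of the cytosolic ribosome, the particle that translates messenger RNA in the cytoplasm. They were chosen by symbol, as every gene whose name is Rps or Rpl followed by a digit, together with Rplp0, Rplp1, Rplp2 and Rpsa, leaving out pseudogene symbols ending in -ps and the Rps6k kinases. The rule gave 86 of the 32285 genes in the count table. Of these, 33 belong to the small subunit and 52 to the large subunit or are paralogs named for it, and Rps19bp1, a nucleolar partner of Rps19, is no ribosomal protein but carries the symbol. UMI counts, in which each counted molecule is tagged once near its 3′ end, were read for these genes in neutrophils of blood and of tumor and in the other leukocytes of the tumor.

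A ribosome holds a single copy of nearly every one of its proteins, and their mRNAs are among the most abundant in most cells. These mRNAs usually begin with a stretch of pyrimidines right at the cap, the 5′ terminal oligopyrimidine tract, through which mTORC1 signalling controls their translation. Neutrophils make most of their granule proteins in the bone marrow, and circulating neutrophils are known for a low content of ribosomes and of RNA.

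The study profiled leukocytes of mice carrying brain tumors of the glioma line SB28 by 3′ single-cell RNA sequencing in droplets, 18 days after 10000 tumor cells were injected. It held 3 groups of 2 libraries: CD45+ cells of the tumor, neutrophils sorted from blood, and neutrophils sorted from tumor. Both neutrophil sorts took CD11b-positive CD45+ cells with high LY6G and low or absent LY6C. All mice carried a tumor, so blood neutrophils here are those of tumor-bearing mice, and neither strain, age nor sex of the mice is given in the sources used here. Blood was drawn before the mice were perfused with saline and the tumors taken. The labels number the samples without tying them to separate mice, so p-values measure only the spread between these libraries, which may be technical.

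The 6 libraries held 3121 to 9418 barcodes and 13945799 to 129422458 UMIs. Neutrophils were taken as cells with at least 0.5% of their UMIs on S100a8 and S100a9, which gave 2951 and 5006 cells in blood, 3347 and 5548 in sorted tumor, and 613 and 809 in the CD45+ libraries, beside 8039 and 7298 other CD45+ cells. None of 10 further neutrophil markers was at 0 in any neutrophil set, nor in the other CD45+ cells of library 1. Levels are given as CPM, the UMIs of a gene relative to those of its cell set. The markers summed to 27392 and 29729 CPM in blood, 16484 and 19367 in sorted tumor and 12967 and 14455 in CD45+ neutrophils. In the other CD45+ cells they summed to 911 and 897 CPM. Macrophage and microglia genes also differed between the neutrophil sets. Their 14 listed genes summed to 589 and 671 CPM in blood, 6038 and 4623 in sorted tumor and 10062 and 14699 in CD45+ neutrophils. Gated cells with at least 2 UMIs of a set of 6 macrophage genes, C1qa, C1qb, C1qc, Csf1r and Ms4a7 among them, were therefore also left out, and each main result is given with and without these macrophage-marked cells. They made up 7.96% and 7.51% of the gated cells in blood, 18.2% and 15.8% in sorted tumor and 25.8% and 34.1% in the CD45+ libraries, and without them the 14 genes summed to 528 and 580 CPM in blood, 567 and 537 in sorted tumor and 1192 and 1305 in CD45+ neutrophils. CD45+ tumor library 1 and sorted tumor library 2 shared 162 cell barcodes, against 3 to 35 for the other 14 pairs of libraries; 144 of the 162 had over 10 times as many UMIs in the sorted library.

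The pyrimidine tract could be looked for in the sequence around annotated gene starts. RefSeq promoter entries on GRCm38.p6 held 69 genes that fit the symbol rule. Among them are Rpl32l, Rpl37rt and Rps23rg1, which are not among the 86 genes of the count table. Between 30 bases before and 50 bases after the annotated start, the longest unbroken run of C or T on the coding strand had a median of 10 bases in these genes and 6 in all 27025 genes of the table. A run of 8 bases or more was found in 52 of the 69 (75.4%), in 32.3% of all genes and in 30.4% of 69 mitochondrial ribosomal protein genes, whose proteins serve the separate ribosome inside mitochondria. The motif CCGGAAG (reverse complement CTTCCGG) was searched on both strands over 300 bases. It was in 26 of the 69 (37.7%), in 37.7% of the mitochondrial set and in 9.93% of all genes. The reverse complement can share bases with a pyrimidine run, as in Rpl37, so run and motif are not independent. Both are matches of letters only, and the start used in neutrophils may differ from the annotated one.

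The windows of 30 bases below show genes on which the comparison of tumor with blood turns; each is read 5′ to 3′ on the coding strand, with the longest pyrimidine run in capitals. Rps9, Rpl37 and Rpl3l fell in tumor, Rps27 did not pass the test, and Rpl36al, Rpl12, Rpl10 and Rplp2 rose both with and without the macrophage-marked cells, while Rpl10a rose only with them and Rps4x turned direction.
Rps9, chr7:3704025-3704054, plus strand: aaccgccttgTCTCTCTTTgtctcgggcct
Rpl37, chr15:5116632-5116661, plus strand: gcgggggtgCTTTCTCTTCCggtctctttg
Rpl3l, chr17:24727846-24727875, plus strand: tggtggggaggCCCCTTCCTaacctgcagg
Rps27, chr3:90213631-90213660, minus strand: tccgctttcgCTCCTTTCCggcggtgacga
Rpl36al, chr12:69184020-69184049, minus strand: gctctgttcgTCCCTTTCCTgttcggcgcg
Rpl12, chr2:32961732-32961761, plus strand: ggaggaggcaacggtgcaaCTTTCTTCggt
Rpl10, chrX:74270836-74270865, plus strand: cgtgagcaggcgtgggagcgTCTCTTTTCC
Rplp2, chr7:141447636-141447665, plus strand: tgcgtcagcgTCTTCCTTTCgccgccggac
Rpl10a, chr17:28328572-28328601, plus strand: aagcgctctgCCTTCTTTCCggtttccgcg
Rps4x, chrX:102189342-102189371, minus strand: cgcgcagcctccgaccctaaTTTCTTCgtt

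Ribosomal protein genes took a small share of neutrophil UMIs. The share was 3.09% and 3.61% in the blood libraries, 4.25% and 3.57% in the sorted tumor libraries and 6.22% and 7.01% in neutrophils of the CD45+ libraries, while the other CD45+ tumor cells gave them 14.7% in both libraries. Blood averaged 3.35% ± 0.369 (SD, n = 2) and sorted tumor 3.91% ± 0.483 (SD, n = 2). These ranges overlapped, and the difference of 0.553 percentage points was within the spread of the libraries (exact two-sided permutation test, p = 0.667; the smallest p that 2 against 2 allows is 0.333).

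The summed share of tumor neutrophils came to a large extent from few cells. Cells with more than 8% of their UMIs on these genes were 5.08% and 3.75% of gated cells in sorted tumor and gave 43.4% and 36.9% of the ribosomal protein UMIs. In the CD45+ libraries such cells were 14.5% and 10.4% of neutrophils and gave 69.5% and 71.6%. In blood they were 0.271% and 5.51% of cells and gave 7.95% and 15.5%. Those of blood library 2 carried genes of other cell types: cells with 8% to 16% had a median depth of 764 UMIs and 8122 CPM of Retnla and 6013 of Cd74, and cells above 16% had 842 UMIs, 4444 CPM of Retnla, 5221 of Cd74 and 1295 of the B cell gene Cd79a. Of these 276 cells 221 are not macrophage-marked and give 11.2% of the ribosomal protein UMIs of blood library 2 without marked cells; their part in the blood values was not tested. The median neutrophil was lower in tumor than in blood, at 2.44% and 2.25% against 2.75% and 3.15%, and the CD45+ neutrophils had medians of 2.76% and 2.71%.

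Without the macrophage-marked cells the order of the summed shares turned: 3.04% and 3.48% in blood, 2.57% and 2.35% in sorted tumor, and 2.83% and 2.80% in CD45+ neutrophils. The tumor libraries then lay below both blood libraries, by 0.802 percentage points on average (exact two-sided permutation test, p = 0.333, the smallest possible). Without the barcodes that libraries shared, sorted tumor library 2 fell from 3.57% to 2.98% and the other neutrophil sets moved less. These are shares of each cell set's UMIs, so a lower share of ribosomal protein mRNA and more mRNA of other genes cannot be told apart. The S100a8 and S100a9 UMIs used for the gate took 14.5% and 13.7% of the total in blood, compared with 6.38% and 6.97% in sorted tumor; with them out of the denominator the difference of all gated cells was 0.282 percentage points.

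**Figure D1:**
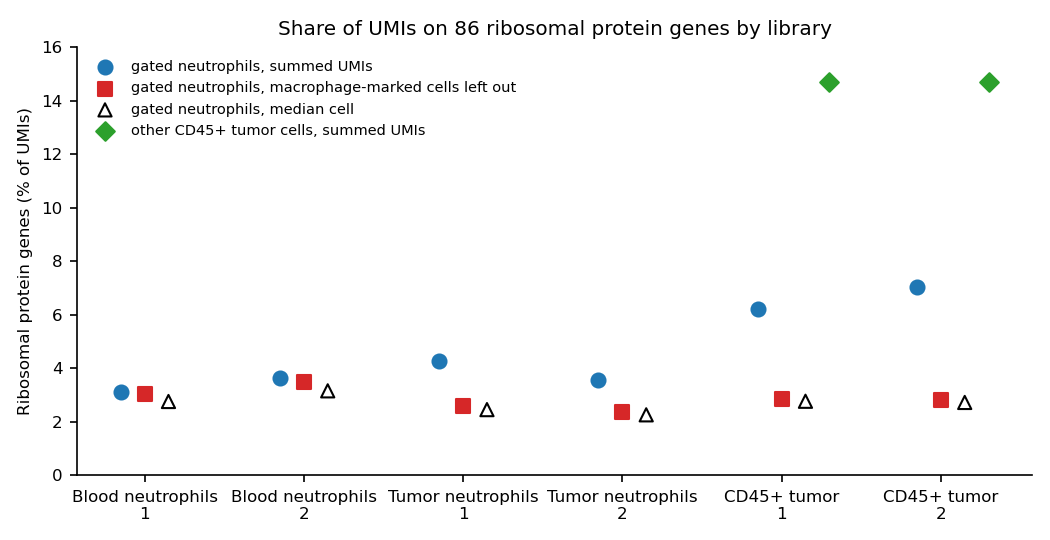
Share of UMIs on the 86 ribosomal protein genes (vertical axis, %) in each library, for gated neutrophils with all cells summed, with macrophage-marked cells left out, and for the median cell, and for other CD45+ tumor cells; each point is 1 library. Neutrophil sets without marked cells lie between 2.35% and 3.48%, and other CD45+ cells at 14.7%.

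Single genes were compared between sorted tumor and blood with edgeR's quasi-likelihood test on UMIs summed per library, with Benjamini-Hochberg adjustment over all 13635 genes tested and a threshold of 0.05. Of the 85 ribosomal protein genes tested, 52 were higher in tumor, 4 were lower and 29 did not pass; across all genes 33.3% were higher and 30.7% lower. Their median log2 fold change was 0.47, against 0.02 for all genes. The libraries of tumor lay above those of blood for 67 genes, below for 5 and overlapped for 13. The same count was not made over all genes, so whether these numbers are unusual cannot be said. Without blood library 1 the median of the 85 genes was 0.40, against 0.02 for all genes. The small subunit had 21 of 33 genes higher and 2 lower with a median of 0.45, and the large subunit 30 of 51 higher and 2 lower with a median of 0.54. Rpl10l, a testis copy of Rpl10, had 0 to 2 UMIs in every neutrophil set and was not tested.

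Without the macrophage-marked cells most of these rises did not pass. Of 84 genes tested among 12411, 14 were higher, 8 lower and 62 uncalled, beside 28.8% higher and 28.3% lower over all genes. The median was 0.03 against -0.02 for all genes, and 69 of the 84 lay within 0.5 log2 units of 0. Both subunits had medians near 0, at 0.02 for the small and 0.03 for the large. Of the 52 rises, 14 were called again, 36 were not called and 2, Rps4x among them, were called lower; all 4 falls were called again, and Rpl7 and Rpl11 joined them. With blood library 1 left out as well, the median was -0.06, against -0.02 for all genes. The rises of Rpl3 (0.31), Rps19 (0.40) and Rplp1 (0.37) were then smaller and not called. With blood library 2 left out instead, the medians were 0.07 and -0.0020. Without the barcodes shared between libraries 27 genes were higher and 4 lower with all other gated cells kept; over all genes that fit called 26.2% higher and 25.5% lower. Scaling mattered beside the choice of cells: when marked cells were left out and total counts alone set the scale, without edgeR's trimmed-mean (TMM) factors, the median of all genes moved to -0.39 and that of the ribosomal protein genes to -0.34, with 4 of them higher and 41 lower, beside 21.2% and 40% of all genes. The genes called higher in that fit were Rpl36al, Rps19bp1, Rpl12 and Rpl10.

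**Figure D2:**
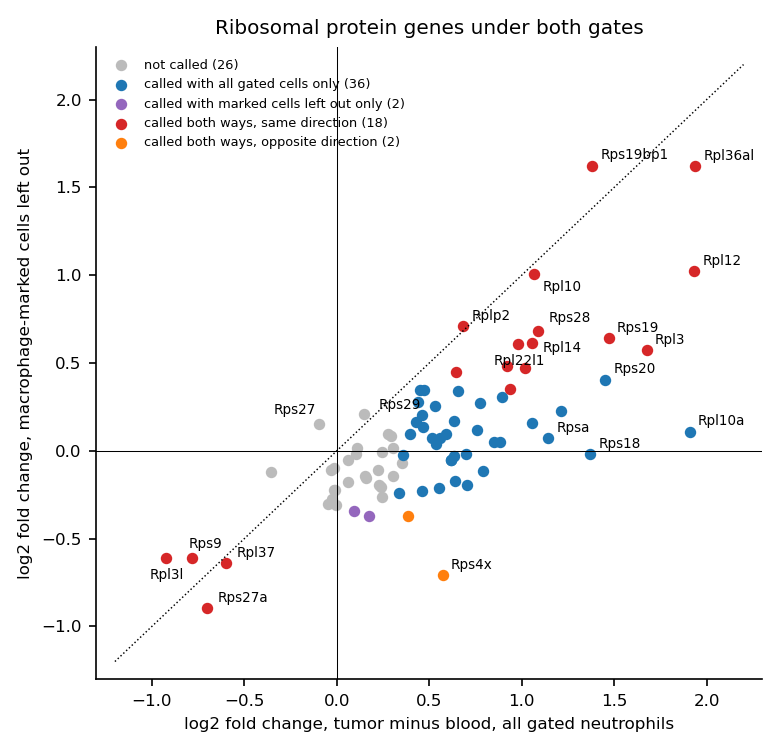
Log2 fold change of each of 84 ribosomal protein genes in sorted tumor against blood neutrophils, with all gated cells (horizontal axis) and with macrophage-marked cells left out (vertical axis); each point is 1 gene and the dotted line marks equal values. Most genes lie below the line, and 18 were called in the same direction both ways.

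The 6 largest rises with all gated cells were of Rpl36al, Rpl12, Rpl10a, Rpl3, Rps19 and Rps20. Rpl36al, a broadly expressed autosomal copy of the X-linked Rpl36a, was at 159.6 and 135 CPM in tumor and 34.1 and 42.6 in blood (log2 fold change 1.94, SE 0.15, edgeR adjusted p = 3.3e-05). Without marked cells it was at 102 and 81.0 CPM in tumor against 27.7 and 31.5 in blood (log2 fold change 1.62, SE 0.15, adjusted p = 7.1e-05). Its libraries did not overlap under either choice of cells. Its parent Rpl36a was at 163 and 137 CPM in tumor against 62.7 and 81.3 in blood, but at 66.7 and 64.8 against 52.5 and 65.0 without marked cells, where the groups overlapped and the log2 fold change was 0.16 (edgeR adjusted p = 0.34).

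Rpl12, a protein at the base of the ribosomal stalk, where elongation factors bind, was at 218 and 177 CPM in tumor and 45.6 and 57.6 in blood (log2 fold change 1.93, SE 0.16, edgeR adjusted p = 4.4e-05). Leaving out marked cells lowered the tumor values to 90.8 and 73.8 CPM and the blood values to 35.2 and 45.4, a log2 fold change of 1.02 (SE 0.16, edgeR adjusted p = 0.0012). The tumor libraries stayed above the blood libraries. Rpl10a, part of the mobile L1 stalk, was as different at first, at 206 and 174 CPM in tumor against 41.6 and 59.4 in blood (log2 fold change 1.91, SE 0.19, edgeR adjusted p = 8.7e-05). It overlapped without marked cells, at 42.3 and 41.2 against 33.5 and 43.7 CPM (log2 fold change 0.11, SE 0.15, adjusted p = 0.56).

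Rpl3, which lies near the peptidyl transferase centre, was at 219 and 191 CPM in tumor against 49.2 and 78.7 in blood, and at 74.7 and 78.6 against 41.9 and 60.8 without marked cells; its log2 fold change went from 1.68 (SE 0.21) to 0.57 (SE 0.18, edgeR adjusted p = 0.024). Its paralog Rpl3l, known from heart and skeletal muscle, fell: it was at 15.2 and 16.4 CPM in tumor and 27.8 and 32.0 in blood (log2 fold change -0.92, SE 0.14, edgeR adjusted p = 8.7e-04), and at 18.0 and 17.8 against 25.3 and 29.3 without marked cells (-0.61, SE 0.15, adjusted p = 0.0093). The parent and its paralog thus differed in direction under both choices of cells, with Rpl3l at the lower level throughout.

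Rpl10, placed late in assembly of the large subunit, hardly depended on the marked cells. It was at 526 and 545 CPM in tumor and 241 and 269.7 in blood (log2 fold change 1.07, SE 0.13, edgeR adjusted p = 2.3e-04) and at 403 and 471 against 208 and 227 without them (1.01, SE 0.13, adjusted p = 4.0e-04). All of the tested 3′ words of Rpl10 are also found in the counted pseudogene Rpl10-ps3, so its counting is uncertain.

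Of the acidic stalk proteins, Rplp1 and Rplp2 rose under both choices and Rplp0, their anchor, with all gated cells only. Rplp1 was at 759 and 692 CPM in tumor against 354 and 411 in blood, and at 459.6 and 455 against 307 and 347 without marked cells (log2 fold change 0.92, then 0.48, edgeR adjusted p = 8.1e-04, then 0.011). Rplp2 was at 702 and 732 CPM against 399.7 and 493, and at 609.8 and 663 against 353 and 426 without marked cells (0.68, then 0.71, adjusted p = 0.0045, then 0.0032). Rplp0 was at 431.5 and 388 CPM against 239 and 288, and without marked cells its log2 fold change of 0.64 went to 0.17 (adjusted p = 0.28).

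In the small subunit the largest rises were of Rps19, mutated in Diamond-Blackfan anaemia, and Rps20. Rps19 was at 397 and 322 CPM in tumor against 105 and 154 in blood, and at 187 and 137 against 86.6 and 121 without marked cells. Its log2 fold change was 1.47 (SE 0.20, edgeR adjusted p = 4.5e-04) and then 0.64 (SE 0.20, adjusted p = 0.026). Rps20 was at 442 and 358 CPM against 124 and 168, with 1.45 (SE 0.18, adjusted p = 3.1e-04) and then 0.41 (SE 0.16, adjusted p = 0.057), so its second value did not pass. Rps28, one of the smallest proteins of this subunit, rose under both choices: 842 and 712 CPM in tumor against 317 and 413 in blood gave 1.09 (SE 0.17, adjusted p = 9.6e-04), and 510.2 and 457 against 271 and 331 without marked cells gave 0.68 (SE 0.14, adjusted p = 0.0043). Rps19bp1, low throughout, was at 11.8 and 11.7 CPM in tumor against 4.37 and 4.63 in blood, with a log2 fold change of 1.38 and, without marked cells, 1.62 (adjusted p = 4.2e-04 both ways).

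The 4 falls were of genes that led the blood neutrophil pool, apart from Rpl3l. Rps9, a small subunit protein of translational accuracy, was at 1281 and 1414 CPM in tumor and 2309 and 2319 in blood (log2 fold change -0.78, SE 0.15, edgeR adjusted p = 0.0030), and at 1256 and 1469.9 against 2083 and 2082 without marked cells (-0.61, SE 0.14, adjusted p = 0.0077). The blood libraries nearly coincided and both exceeded the tumor libraries. Rps9 lies at chr7:3703993-3706897 on the plus strand of mm10, and 4.69% of its 3′ words occur in another annotated gene, none of them counted in the table.

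Rps27a, made as a fusion with ubiquitin, was at 861 and 847 CPM in tumor and 1326 and 1452 in blood (log2 fold change -0.70, SE 0.14, edgeR adjusted p = 0.0033), and at 646 and 681 against 1182 and 1289.9 without marked cells (-0.90, SE 0.13, adjusted p = 6.8e-04). Rpl37 was at 1083 and 1199.5 CPM in tumor against 1611 and 1848 in blood (log2 fold change -0.60, SE 0.16, edgeR adjusted p = 0.011) and at 897 and 1090.4 against 1453 and 1645 without marked cells (-0.64, SE 0.15, adjusted p = 0.0084). In each of Rps27a and Rpl37 both tumor libraries lay below both blood libraries, with and without marked cells. Leaving out blood library 2 left 3 of the 4 falls past the threshold under either choice of cells: Rpl37 had -0.51 (edgeR adjusted p = 0.054) with all gated cells and Rpl3l had -0.51 (adjusted p = 0.098) without marked ones. With a gate at 5% and no macrophage marker UMI, Rpl3l had -0.35 (adjusted p = 0.10).

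**Figure D3:**
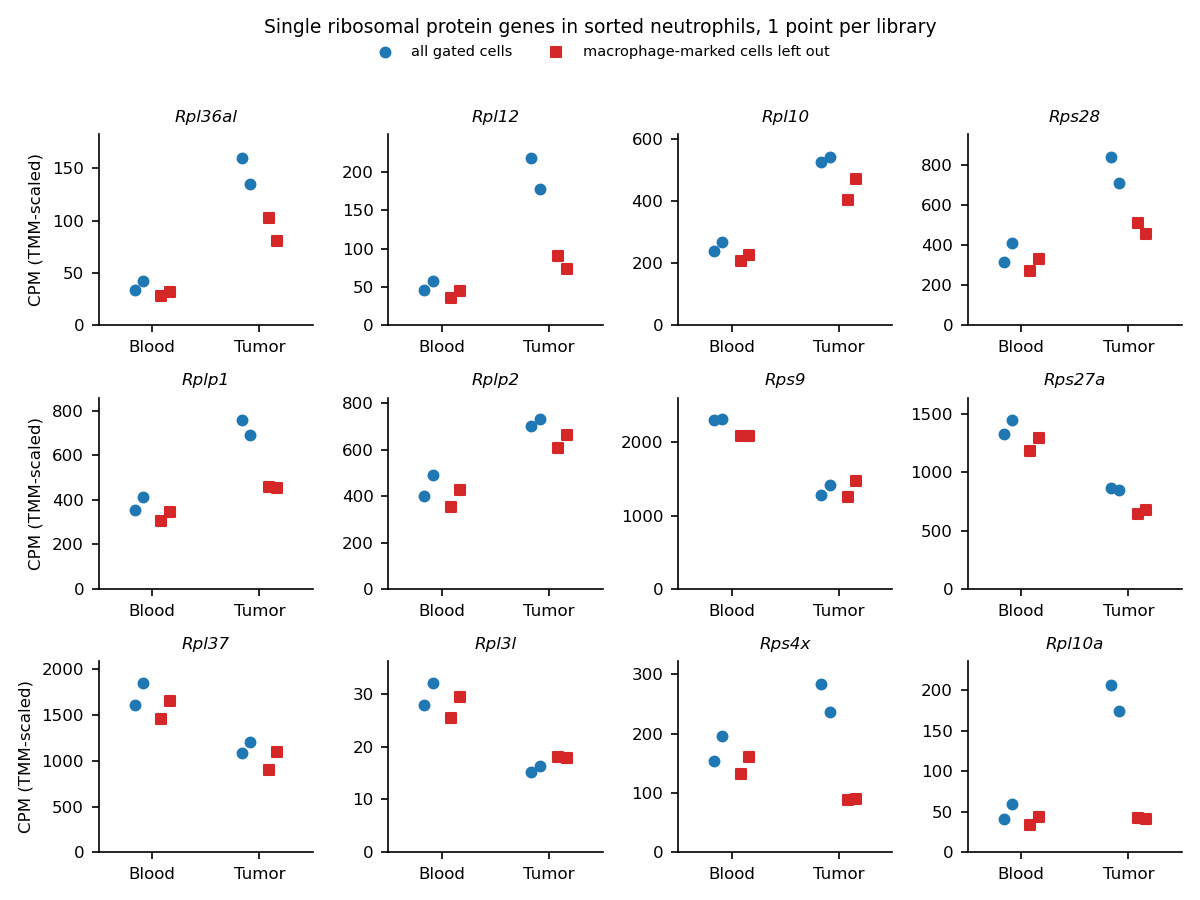
TMM-scaled CPM of single ribosomal protein genes (vertical axes, each from 0) in the 2 blood and 2 sorted tumor neutrophil libraries, with all gated cells and with macrophage-marked cells left out; each point is 1 library. Rps9 lies lower in tumor and Rpl36al higher under both choices of cells, while the tumor values of Rpl10a come down to those of blood.

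Rps4x, the X-linked form of a small subunit protein, changed direction with the choice of cells. It was at 283 and 237 CPM in tumor against 153 and 196 in blood (log2 fold change 0.57, SE 0.16, edgeR adjusted p = 0.014), and at 88.5 and 90.4 against 131 and 161 without marked cells (-0.71, SE 0.13, adjusted p = 0.0025). The libraries did not overlap in either case. Without shared barcodes and with other cells kept, its log2 fold change was 0.43 (adjusted p = 0.22).

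Rps27, Rps29 and Rpl41, among the most abundant members, had smaller differences. Rps27, a zinc finger protein of the small subunit, was at 1741 and 1885 CPM in tumor and 1846 and 2023 in blood (log2 fold change -0.09, SE 0.16, edgeR adjusted p = 0.62), and at 1835 and 2019 against 1661 and 1810.3 without marked cells (0.15, adjusted p = 0.39). Its near-copy Rps27rt, which shares 90.8% of its 3′ words with Rps27, had a log2 fold change of -0.35 (adjusted p = 0.10), and the split of reads between them is uncertain. Rps29 was at 2088 and 1838 CPM in tumor against 1387 and 1524.5 in blood (0.43, adjusted p = 0.043), with 0.17 (adjusted p = 0.31) without marked cells. Rpl41, the smallest ribosomal protein, was at 1360 and 1353 CPM against 1194 and 1324.5 (0.11, adjusted p = 0.54).

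Further genes are known for roles beyond the ribosome. Rpsa, which also serves as a laminin receptor, was at 305 and 244 CPM in tumor against 103 and 145 in blood, with a log2 fold change of 1.14 (edgeR adjusted p = 0.0012) that became 0.07 (adjusted p = 0.73) without marked cells. Rps6, the substrate of the S6 kinases downstream of mTORC1, went from 0.51 (adjusted p = 0.0048) to 0.07 (adjusted p = 0.59), and Rpl13a, a translational silencer in interferon-treated monocytes, from 0.56 (adjusted p = 0.0037) to 0.07 (adjusted p = 0.58). Rpl5 and Rpl11, which with 5S RNA restrain Mdm2, had 0.63 (adjusted p = 0.0031) and 0.18 (adjusted p = 0.26), and without marked cells -0.03 (adjusted p = 0.86) and -0.37 (adjusted p = 0.030). Rps3, Rps25 and Rpl38, known from DNA repair, viral initiation and Hox mRNA translation, did not pass with all gated cells (0.30, 0.06 and 0.24). Their values without marked cells were 0.02, -0.05 and -0.01.

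Of the remaining paralog pairs, Rpl22l1 rose under both choices (log2 fold change 0.98, edgeR adjusted p = 4.6e-04, and 0.61, adjusted p = 0.014), while Rpl22 rose with all gated cells (0.76, adjusted p = 0.0033) and had 0.12 (adjusted p = 0.52) without marked ones. Rps27l, a p53 target, had 0.47 (adjusted p = 0.017) and 0.35 (adjusted p = 0.19). Rpl7l1, a nucleolar assembly protein at 25.1 and 20.8 CPM in tumor against 21.4 and 20.0 in blood, did not pass (0.15, adjusted p = 0.41), and Rpl7 had 0.09 (adjusted p = 0.52) and then -0.35 (adjusted p = 0.029). Rpl39l, at 1.62 and 1.73 CPM in tumor and 1.09 and 0.296 in blood, did not pass either (1.39, adjusted p = 0.055), and Rpl39 had 0.35 (adjusted p = 0.064).

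The make-up of the ribosomal protein pool was then read in neutrophils and in other leukocytes. In blood neutrophils the 5 leading genes, Rps9, Rps27, Rpl37, Rps29 and Rps27a, took 27.3% and 26.5% of all ribosomal protein UMIs, and 16 genes made up 50%. In other CD45+ tumor cells the 5 leading genes took 13.2% and 12.6%, and 26 and 28 genes were needed. Neutrophils of the same CD45+ libraries were close to these cells, with 14.5% and 13.2% and with 24 and 26 genes, and had 20.3% and 20.2% with 20 and 21 genes without marked cells. Sorted tumor neutrophils lay between these values, with 18.4% and 19.9% for the leading 5 and 23 and 22 genes for 50%; without marked cells these values were 23.6% and 25.3%, and 19 and 18 genes.

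Taken without marked cells, Rps9 made up 7.57% and 6.96% of the pool in blood, 4.53% and 5.23% in sorted tumor, 4.64% and 4.74% in CD45+ neutrophils, and 1.83% and 1.67% in other CD45+ cells. Rps27 made up 6.04% and 6.05% in blood, 6.62% and 7.18% in sorted tumor and 4.64% and 5.03% in CD45+ neutrophils, against 1.17% and 1.16% in the other cells. Both were higher in all 6 neutrophil sets than in the other cells. Rps27a, at 4.30% and 4.31% of the pool in blood, was near the other cells in tumor: 2.33% and 2.42% in sorted and 2.72% and 2.48% in CD45+ neutrophils, against 2.18% and 2.02%. Across the 84 genes the log levels of blood neutrophils and of other CD45+ cells had Pearson's r = 0.76 and Spearman's rho = 0.75, those of sorted tumor and blood neutrophils 0.93 and 0.95, and without marked cells 0.97 and 0.97; genes are not independent replicates.

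**Figure D4:**
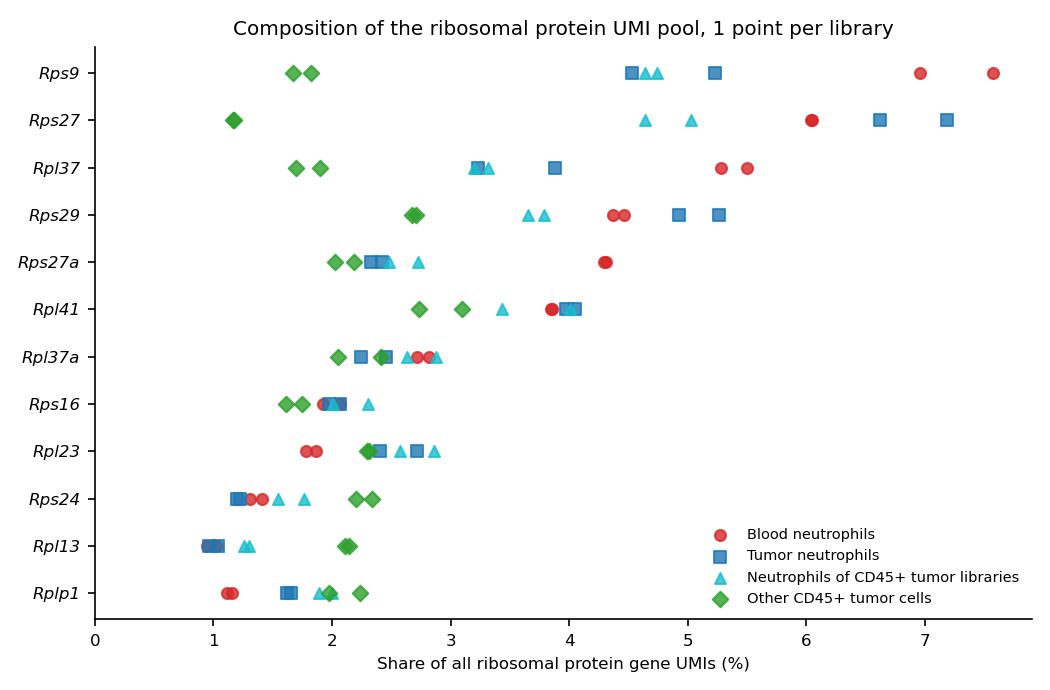
Share of all ribosomal protein UMIs (horizontal axis, %) taken by single genes in blood, sorted tumor and CD45+ neutrophils without macrophage-marked cells and in other CD45+ tumor cells; each point is 1 library. Rps9, Rps27 and Rpl37 take a larger share in every neutrophil library than in other cells.

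Within the CD45+ tumor libraries, neutrophils had lower levels of almost all ribosomal protein genes than the other cells of the same libraries. In an edgeR fit with the library as a block, 81 of 85 genes were lower, 0 higher and 4 uncalled, beside 22.8% lower and 18.9% higher among 16140 genes; 0 were higher at an unadjusted p under 0.05 and 0 with DESeq2. The median log2 fold change was -0.99, against -0.16 for all genes. Without marked cells 82 were lower, with a median of -2.23, beside 31.1% of all genes lower. The fit has 1 residual degree of freedom, so single calls here are weak. On simulated data with 200 changed genes 42.1% of its calls were false. That share does not carry over to this fit, which called far more genes. Without the block 62 genes were lower, beside 8.78% of all genes.

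With all gated cells the largest falls were of Rps18, Rps4x, Rpsa and Rps2. Rps18 was at 520 and 962 CPM in neutrophils and 1358 and 2067 in other cells (log2 fold change -1.24, SE 0.12, edgeR adjusted p = 1.0e-22). Rps4x was at 670.3 and 899.6 CPM against 1798 and 1857, Rpsa at 682 and 822 against 1765 and 1750.4, and Rps2 at 584 and 889.6 against 1464 and 1949.8, each with a log2 fold change of -1.23. Neutrophils lay below other cells in both libraries for all 4. Without marked cells the falls were larger, at -3.25 for Rps18, -3.22 for Rps4x, -2.88 for Rpsa and -2.97 for Rps2, and Rpl10a then fell more than these 4 (-3.59, SE 0.16). Rps18 shares 68.0% of its 3′ words with counted Gm10260 and Gm11361, so its counts are uncertain.

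Rps27 was not called, at 1402 and 1689 CPM in neutrophils and 1541 and 1639 in other cells (log2 fold change -0.04, SE 0.12, edgeR adjusted p = 0.80). Without marked cells it was at -0.03 (adjusted p = 0.85), where the median of all members was -2.23. Rps27rt, Rpl3l and Rpl39l were the other uncalled genes; Rpl3l was at 12.6 and 7.38 CPM against 7.71 and 8.82. Scaled to the ribosomal protein total of each cell set instead of to all genes, 6 genes were higher in neutrophils: Rps27 (0.88), Rps9 (0.52), Rpl37 (0.31), Rps27rt (0.87), Rpl3l (1.08) and Rpl39l (1.23). Rps18, Rps4x and Rpsa were lower. This scaling moves the median of all genes to 0.75 and calls 42.7% of them higher.

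Neutrophils taken from tumor through the 2 sorts were then compared. Against neutrophils of the CD45+ libraries, 16 of 85 genes were lower in the sorted libraries and 0 higher with edgeR. Among 12497 genes 3.92% were lower and 2.17% higher. With DESeq2 39 were lower and 1 higher, beside 597 and 568 of 12497 genes. At an unadjusted p under 0.05 there were 52 lower and 2 higher. The unadjusted counts of this comparison were not made over all genes, so whether they are unusual cannot be said. Rps4x was at 314 and 263 CPM in sorted cells and 577 and 702 in CD45+ neutrophils (log2 fold change -1.15, SE 0.19, edgeR adjusted p = 0.027). Rps20 (-1.02), Rpsa (-1.01) and Rpl10a (-1.01) came next, with sorted libraries below CD45+ libraries. Without marked cells 0 genes passed in either direction among 10188 tested, where 0.128% of all genes were lower and 0 higher; 15 members were lower and 2 higher at an unadjusted p under 0.05. Without marked cells Rps4x had a log2 fold change of -0.99 (SE 0.16, edgeR adjusted p = 0.10), Rpsa -1.04 (SE 0.19, adjusted p = 0.14), Rpl10a -1.10 (SE 0.19, adjusted p = 0.12) and Rps20 -0.78 (SE 0.19, adjusted p = 0.24). Without shared barcodes 0 passed as well, beside 38 lower and 3 higher of 12439 genes, with 45 members lower and 2 higher at an unadjusted p under 0.05. The calls did not hold without either sorted library. With 1 library left out the median log2 fold change of the members was -0.64 to -0.41, against -0.09 to 0.03 for all genes. CD45+ neutrophils were shallower, with median depths of 1614 and 2648 UMIs against 3904 and 3872.

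Other leukocytes of the tumor gave these genes 2.22-fold the share of all gated CD45+ neutrophils and 5.22-fold that of the neutrophils without marked cells, over a wide range of cell classes. The other cells were clustered without the ribosomal protein genes into 20 clusters, whose shares ran from 5.42% to 20.3%. T or NK cell-like clusters had 16.5% and 18.7%, dendritic cell-like clusters 15.8% and 16.8%, the B or plasma cell-like cluster 15.1% and 20.7%, macrophage or microglia-like clusters 14.2% and 13.2% and monocyte-like clusters 11.7% and 13.5% in libraries 1 and 2. The 9 unnamed clusters held 4153 of the 8039 and 4265 of the 7298 other cells, and had 15.01% and 14.8%. The highest share was that of unnamed cluster 12, with 20.3% and a median depth of 1930 UMIs. The lowest was unnamed cluster 10, with 755 of its 759 cells from library 1 and a median depth of 1679 UMIs. In both, the best-matching marker list was that of macrophages or microglia, with 8 markers in cluster 12 and 7 in cluster 10. Unnamed cluster 7, with 9 markers of that list, had 12.7%. The macrophage or microglia-like values come from clusters 1 and 3 only, so they do not give the range of all such cells. Rps27 was at different levels in these classes: 4988 and 6437 CPM in the B or plasma cell-like cluster, 2571 and 3315 in T or NK cell-like clusters, 1546 and 1628 in macrophage or microglia-like clusters.

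**Figure D5:**
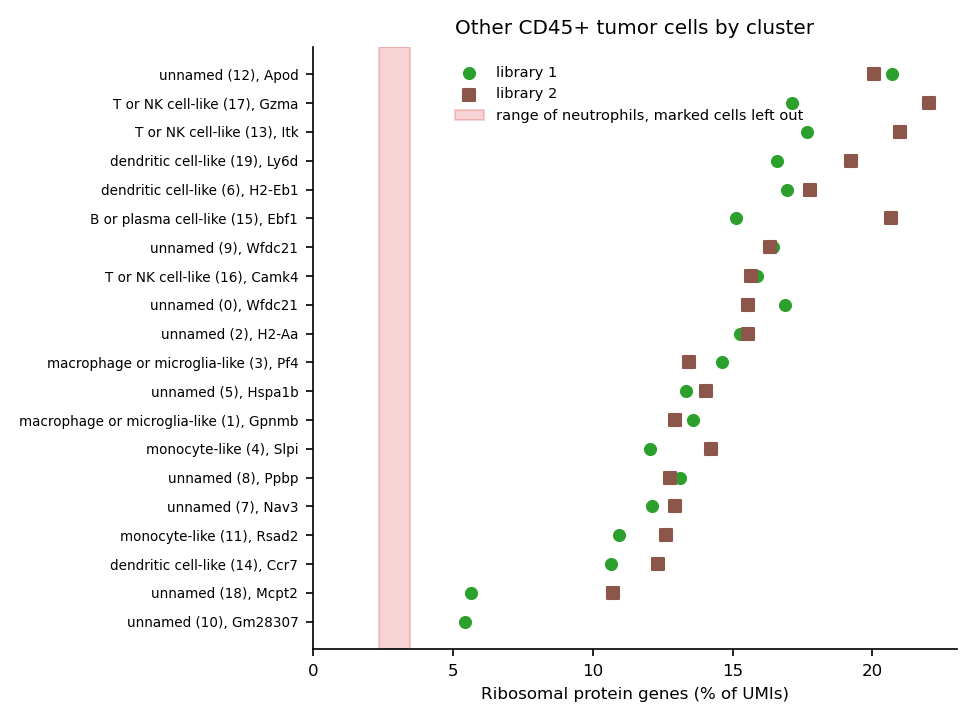
Share of UMIs on ribosomal protein genes (horizontal axis, %) in clusters of other CD45+ tumor cells, in libraries 1 and 2, each with its name, number and leading gene; clusters with under 20 cells in a library have no point there. The shaded band is the range of the 6 neutrophil sets without macrophage-marked cells, 2.35% to 3.48%, and every plotted cluster lies above it.

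Genes that serve the same process were read in the comparison of sorted tumor with blood. Over all genes 33.3% were higher and 30.7% lower, and 28.8% and 28.3% without marked cells. Of 26 translation initiation and elongation factors, 17 were higher and 0 lower with edgeR, and 15 and 0 without marked cells; the median was 0.65 and then 0.63. Eif4e, the cap-binding protein, rose most (log2 fold change 2.26, SE 0.13, edgeR adjusted p = 8.3e-06). Of 26 assembly and nucleolar genes, 18 were higher and 2 lower, and 10 and 1 without marked cells; Tsr1, needed for small subunit maturation, had the largest rise (3.64, adjusted p = 0.0025) but was too low to be tested without marked cells, and Polr1a, the largest subunit of RNA polymerase I, fell (-1.90, adjusted p = 3.0e-05).

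Of 16 further mRNAs known for a terminal oligopyrimidine tract, 11 were higher and 1 lower, and 5 and 1 without marked cells. Those 5 of 16 lie near the 28.8% of all genes called higher without marked cells. Hnrnpa1, an RNA-binding protein, had 1.29 (edgeR adjusted p = 3.0e-04) and Eif3f -0.33 (adjusted p = 0.049). Of 78 mitochondrial ribosomal protein genes, 37 were higher and 15 lower, beside 33.3% and 30.7% of all genes, and 17 each way without marked cells, beside 28.8% and 28.3%, with Mrpl45 (3.89) and Mrps15 (-1.70) at the ends. In the mTORC1 list 7 of 17 genes were higher and 6 lower, and 3 and 5 without marked cells, counts near or below those shares of all genes; Ddit4, a stress-induced inhibitor of mTORC1, had 3.88 (adjusted p = 9.9e-06), and Eif4ebp2, a repressor of Eif4e, had -1.53 (adjusted p = 3.3e-05). In ribosome rescue 6 of 14 were higher and 4 lower under both choices, with Map3k20, the kinase that senses collided ribosomes, at 3.91 (adjusted p = 1.6e-05) and Rnf14, a ubiquitin ligase for stalled ribosomes, at -1.64 (adjusted p = 1.3e-04). Rack1, which sits on the small subunit, had 0.65 (adjusted p = 0.0061) and then -0.26 (adjusted p = 0.10).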

How the data were processed

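The deposited values are raw UMI counts, 1 filtered matrix of genes by cell barcodes per library. The authors used Cell Ranger 7.1.0 and mm10, according to the submitters' processing notes; the annotation and the handling of intronic reads are not given in the sources used here. Per the labels, each lane was loaded with 20000 cells, and 40000 reads per cell is given, taken here as an aim and not as the depth reached. Groups came from the labels. The members and lists were chosen with earlier results of these data known.

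Barcodes with under 200 genes or over 10% of UMIs from mitochondria were dropped. Scrublet (scanpy 1.11.5) by itself called 0 to 4 doublets per library, so the highest scores were removed at 0.8% per 1000 cells, a choice made after seeing this; 3037 to 8652 cells per library stayed. Counts were summed per library and cell set and tested with edgeR 4.0.16 (TMM, filterByExpr, quasi-likelihood) in R 4.3.3, with DESeq2 1.42.0 as an alternative. CPM beside a fold change are TMM-scaled; other CPM use raw totals. On simulated data for tumor against blood (13635 genes) the test found 53% of genes changed 2-fold and 90% of those changed 4-fold. Of its calls 14.4% were false. For sorted against CD45+ libraries (12497 genes) these values were 28%, 78% and 19.1%. In each simulation 200 genes were changed, fewer than the main fits called. The share of false calls depends on that number and does not carry over to the data. Same-numbered libraries of tumor and blood did not deviate together (correlation -0.0544), so no block was used between groups.

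Other CD45+ cells were clustered with Leiden at resolution 1.0 and named from at least 3 fixed markers; 3 names that leading genes went against were dropped after seeing the clusters. Shared 3′ words are stretches of 60 bases in the last 400 of a transcript in GENCODE vM21 (mm10), which holds all 86 genes: 62 share words with another gene, 14 with a counted one, and 22 overlap a gene on the opposite strand. Named genes are the largest changes past the threshold (up to 6 each way for tumor against blood where groups do not overlap, up to 4 elsewhere), the 6 most abundant, paralogs with parents, 14 genes by role and the extremes of each list. Rps28, Rps19bp1 and the windows shown were chosen after their values were seen. A few genes that the rules name are not reported here.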

Additional observations from a re-analysis of the deposited data

Results flagged for a closer look

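Cells that missed the S100a8 and S100a9 gate in the sorted libraries entered no comparison, and their summed UMIs held a larger share of ribosomal protein UMIs than those of the gated neutrophils of the same library. In blood, 86 and 78 such cells had 18.8% (18.76%) and 22.3% (22.33%) of their UMIs on these genes, against 3.09% and 3.61% in gated cells. In sorted tumor, 656 and 687 such cells had 11.7% (11.74%) and 12.1% (12.11%), against 4.25% and 3.57%. At least 2 macrophage marker UMIs were found in 11.6% and 14.1% of these cells in blood and 44.7% and 52.1% in sorted tumor. In blood, 30 and 38 of these cells had over 8% of their UMIs on these genes and gave 96.3% and 97.2% of the ribosomal protein UMIs, while the median cell had 4.27% and 7.27%. The B cell list summed to 4950 and 5274 CPM in the blood cells below the gate, against 70.4 and 152 in gated cells, and the dendritic cell list, which holds Cd74 and H2-Eb1, to 7499.8 and 8037 against 50.1 and 275. The part of these cell types in the result was not tested.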

How the results depend on the processing

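The difference in summed share between sorted tumor and blood turned negative as a mean over cells (-0.368 percentage points), as a median over cells (-0.600), with a gate at 2% (-0.220), without macrophage-marked cells (-0.802) and with a gate at 5% and 0 macrophage marker UMIs (-0.765). The difference between CD45+ neutrophils and other cells, -8.08, stayed negative under every alternative run: -9.19 as a mean over cells, -10.7 as a median, -6.40, -9.57 and -11.3 with gates at 0.25%, 1% and 2%, -5.85 without doublet removal, -5.83 over all barcodes, -11.9 without marked cells and -12.1 with the strictest gate. The median over cells, the strictest gate, the removal of shared barcodes and the fits that combine marked cells with another choice were chosen after seeing the data.

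For tumor against blood, 52 genes were higher: 14 without marked cells, 20 with the strictest gate, 27 without shared barcodes, 24 scaled to the ribosomal protein total, 4 without marked cells and on total counts, and 34 to 53 with 1 library left out. The 4 falls became 8 without marked cells and 41 there on total counts, beside 28.3% and 40% of all genes lower. With the replicate numbers as a block, 51 were higher and 4 lower, beside 4612 and 4251 of 13635 genes. With the block and without marked cells 15 were higher and 8 lower, beside 3659 and 3636 of 12411 genes. The replicate numbers do not pair the samples. Reversed on total counts without marked cells were Rpl10a (-0.261), Rpl13a (-0.293), Rpl22 (-0.243), Rpl36a (-0.210), Rpl5 (-0.391), Rplp0 (-0.195), Rps27l (-0.0021), Rps29 (-0.199), Rps4x (-1.08), Rps6 (-0.295) and Rpsa (-0.289). Rpl5 and Rps4x also reversed without marked cells (-0.0316 and -0.708), with the block there (-0.0400 and -0.702) and with the strictest gate (-0.0456 and -0.417). For neutrophils against other CD45+ cells, scaling to the ribosomal protein total gave 6 higher and 3 lower. For sorted against CD45+ neutrophils, lower genes numbered 59 with a gate at 0.25%, 65 without doublet removal and over all barcodes, 64 on total counts, 29 without a count filter, 39 with DESeq2, 0 with gates at 1% and 2%, without marked cells, with the strictest gate, without shared barcodes and scaled to the ribosomal protein total, and 0 to 37 with 1 library left out. Higher genes numbered 2 with a gate at 0.25%, without doublet removal, over all barcodes and with all 6 libraries in 1 fit. They were 3 without a count filter and scaled to the ribosomal protein total, and 1 with DESeq2 and with the block. Over all genes these fits called between 513 and 2163 higher. Over all genes, 490 of 12497 were lower in the main fit of sorted against CD45+ neutrophils. The lower genes were 2036 of 12971 with a gate at 0.25%, 2416 of 12901 without doublet removal and 2376 of 12925 over all barcodes. They were 1795 of 12497 on total counts, 1271 of 22317 without a count filter and 597 of 12497 with DESeq2. The cause of the changes between settings was not tested.

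Of 906 alternative values of 43 single genes, 739 kept direction and side of the threshold, 103 lost the call, 14 gained one, 17 reversed and 33 moved. The CD45+ neutrophils are limited by 613 and 809 cells and median depths of 1614 and 2648 UMIs.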
